A study of Homo sapiens with 6 samples.

Results

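Aminoacyl-tRNA synthetases are the enzymes that load each amino acid onto its transfer RNA, so that the ribosome can read codons as amino acids. The genes described here are the 36 rows of the count table whose symbol names such an enzyme, 20 of the cytosol (AARS to YARS) and 16 of mitochondria (AARS2 to YARS2), out of 58735 genes in the table. They were taken by symbol alone, with each symbol matching 1 row, and the symbols are the older ones (AARS is now AARS1).

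Human cells keep separate sets of these enzymes. The cytosolic enzymes serve the translation of nuclear genes, and several of them sit with scaffold proteins in a large multi-synthetase complex. The mitochondrial enzymes are encoded in the nucleus, are imported, and serve only the few proteins made from mitochondrial DNA. GARS and KARS supply glycyl- and lysyl-tRNA in both places. In mammalian cells many genes of the cytosolic set are known targets of ATF4, the transcription factor that is made when amino acids are short or when the kinase GCN2 senses uncharged tRNA.

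RNA came from VCaP cells, a human prostate cancer line with a TMPRSS2-ERG fusion, stably infected with an shRNA against NEDD9 (shNEDD9) or with a non-targeting shRNA (shNTC) and grown with 10% FBS. Each group had 3 libraries, called biological triplicates in the series design. The labels name 1 cell line and give neither the hairpin sequence nor whether the stable cells were clones or pools, so an effect of NEDD9 and one of the particular stable culture cannot be told apart. All p-values measure the spread between these libraries, which was small (common biological coefficient of variation 1.65%) and may be close to technical.

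Libraries held 3217276 to 9902002 counts, with shNTC replicate 2 the shallowest. NEDD9, a scaffold protein of focal adhesions and the target of the shRNA, stood at 362.3, 339.3 and 365.4 CPM (gene counts scaled to a common library size, with TMM factors) in shNTC and at 137.1, 138.0 and 135.9 CPM in shNEDD9, which is 2.62-fold lower (edgeR adjusted p below 1e-300). All 8 fixed markers of VCaP cells were present, but they did not move together: KLK2 and KLK3 were among those that rose, and HOXB13, FOLH1, TMPRSS2 and ERG fell. Their log2 fold changes ran from -1.68 (FOLH1) to 1.75 (KLK3), and their sum, mostly KLK2, was 14085 to 14312 CPM in shNTC and 16711 to 17296 CPM in shNEDD9. Leukocyte markers summed to 3.09 to 5.03 CPM and 4.36 to 5.14 CPM with CD3E and CD68 among those at 0, and endothelial markers to 1.34 to 2.83 CPM and 1.61 to 2.35 CPM with CDH5 at 0. Fibroblast markers summed to 26.1 to 32.4 CPM in shNTC and 47.5 to 54.3 CPM in shNEDD9, mostly LUM, with COL1A1 lower in shNEDD9. Basal markers summed to 2.15 to 2.83 CPM and 2.72 to 3.82 CPM with KRT5 at 0. Their part in the results was not tested.

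Transcripts of the cytosolic enzymes were higher in shNEDD9 and those of the mitochondrial enzymes moved less. Of the 20 cytosolic genes, 17 rose, 0 fell and 3 were not called (HARS, RARS and IARS), at an adjusted p under 0.05 in edgeR's quasi-likelihood test over all 13958 genes that passed the count filter. In that test 71.4% of all genes were called, 35.5% higher and 35.9% lower. Of the 16 mitochondrial genes, 12 rose, 2 fell (LARS2 and RARS2) and 2 were not called (SARS2 and EARS2). The median log2 fold change was 0.82 over the cytosolic genes, a 1.77-fold increase, and 0.39 over the mitochondrial genes, a 1.31-fold increase, against 0.00 over all tested genes. All 36 members passed the count filter.

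By size of change, 12 cytosolic and 3 mitochondrial genes were at least 1.5-fold higher, a mark that 17.2% of all tested genes passed, while 18.6% of all tested genes and 0 members were at least 1.5-fold lower. 7 members rose at least 2-fold, and all 7 were cytosolic. CARS had the largest log2 fold change of the members and was number 117 of 13958 genes by that measure. The groups of libraries did not overlap in 31 of the 36 members, against 71.8% of all tested genes.

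**Figure D1:**
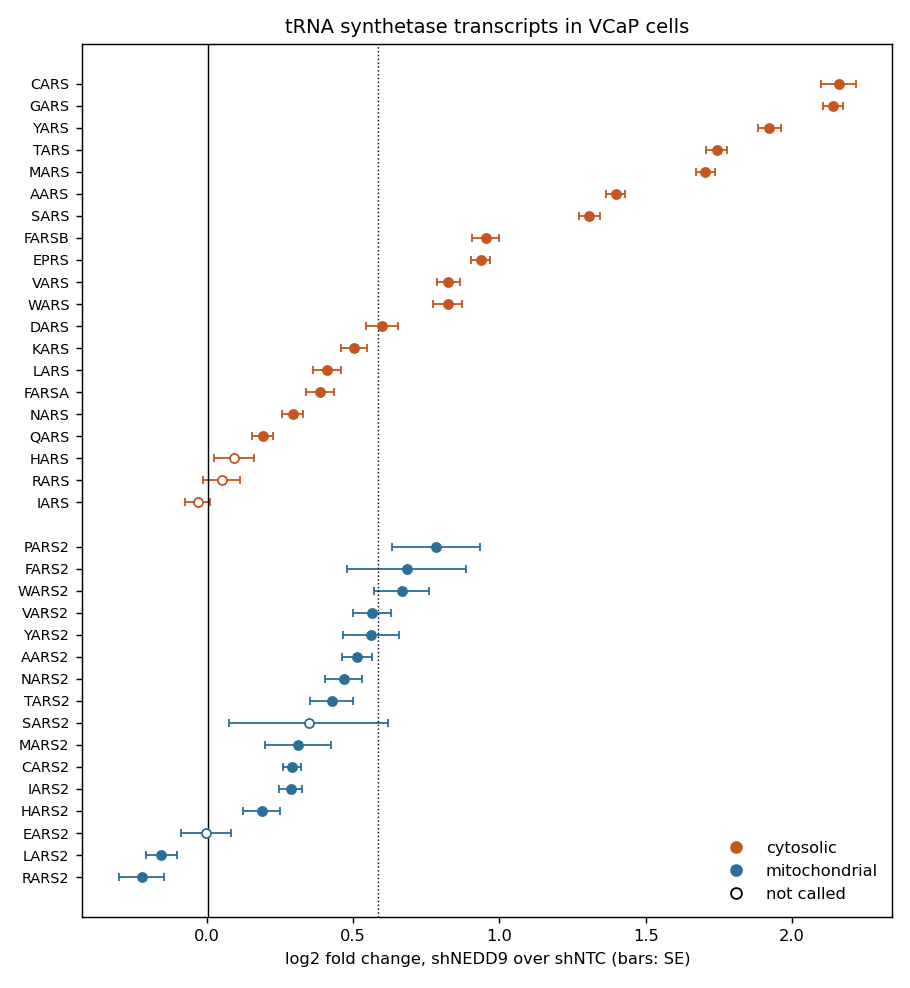
Log2 fold change of each of the 36 synthetase genes, shNEDD9 over shNTC, with its standard error, for cytosolic (orange) and mitochondrial (blue) enzymes. Open circles were not called, the solid line is the median of all tested genes and the dotted line marks 1.5-fold. The cytosolic genes spread from -0.03 to 2.16 and the mitochondrial genes from -0.22 to 0.78.

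The largest changes were in cytosolic enzymes that do not belong to the multi-synthetase complex. CARS, the cysteinyl-tRNA synthetase gene (ENSG00000110619, GRCh38 chr11:3000922-3057613, minus strand), stood at 37.1, 34.2 and 34.7 CPM in shNTC and at 167, 160.4 and 153.3 CPM in shNEDD9. GARS, the glycyl-tRNA synthetase gene (ENSG00000106105, chr7:30594681-30634033, plus strand), stood at 147.4, 159.9 and 141.8 CPM in shNTC and at 665.5, 653.3 and 639.1 CPM in shNEDD9. In both genes every shNEDD9 library lay far above every shNTC library. CARS rose 4.47-fold (log2 fold change 2.16, SE 0.06, edgeR adjusted p = 1.41e-294) and GARS 4.41-fold (2.14, SE 0.03, edgeR adjusted p below 1e-300).

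YARS, for tyrosine (chr1:32775237-32818153, minus strand), stood at 98.0, 91.1 and 103.1 CPM in shNTC and at 393.1, 360.4 and 370.6 CPM in shNEDD9. TARS, for threonine (chr5:33440696-33469539, plus strand), stood at 130.7, 121.9 and 132.9 CPM in shNTC and at 443.3, 416.4 and 443.2 CPM in shNEDD9. These were increases of 3.79-fold and 3.35-fold with no overlap between groups (log2 fold changes 1.92, SE 0.04, and 1.74, SE 0.04, both with edgeR adjusted p below 1e-300). AARS, for alanine (chr16:70252295-70289543, minus strand), rose 2.63-fold, from 179.8, 173.1 and 178.6 CPM to 464.1, 466.6 and 474.3 CPM. SARS, which charges serine and also supplies the precursor of selenocysteine (chr1:109213918-109238169, plus strand), rose 2.48-fold, from 145.6, 154.0 and 153.2 CPM to 378.0, 363.2 and 374.8 CPM. For these 2 genes too, the 3 shNTC values lay within a narrow range and all shNEDD9 values above it (edgeR adjusted p below 1e-300 for AARS and 9.57e-292 for SARS).

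**Figure D2:**
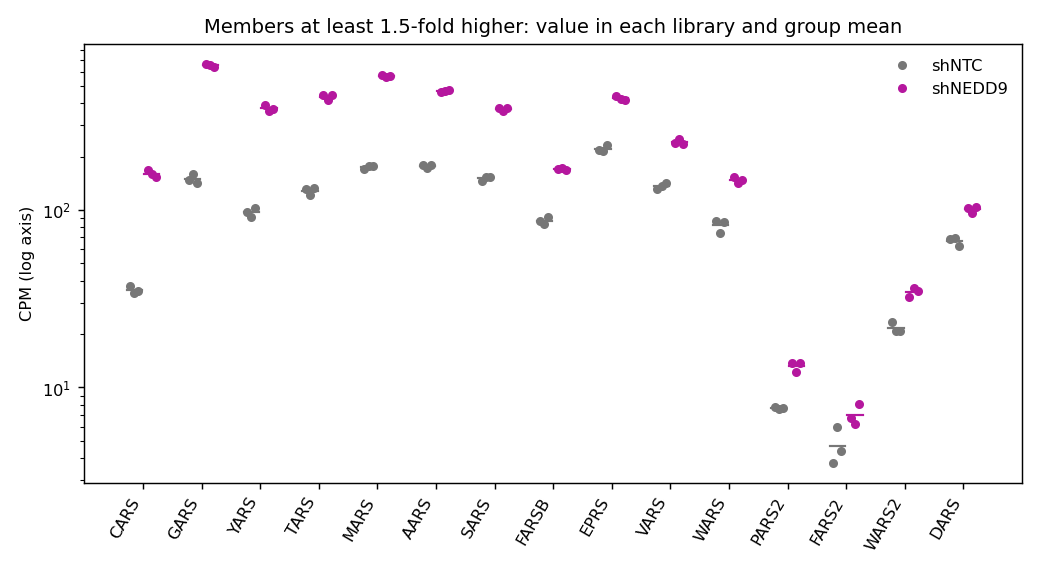
CPM on a log axis in each library for the 15 members that were at least 1.5-fold higher in shNEDD9, in order of log2 fold change, with bars for group means. The groups do not overlap in any of these genes, and FARS2 is the least abundant.

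Phenylalanyl-tRNA synthetase is built from an alpha subunit (FARSA) and a beta subunit (FARSB). FARSB stood at 87.1, 83.3 and 91.1 CPM in shNTC and at 169.9, 173.1 and 167.9 CPM in shNEDD9, a 1.94-fold increase. FARSA stood at 102.1, 112.5 and 103.9 CPM in shNTC and at 129.6, 145.1 and 135.6 CPM in shNEDD9, a 1.31-fold increase. Both subunits rose (edgeR adjusted p = 1.42e-92 and 3.04e-16), and the difference between them was not tested. VARS, for valine, rose 1.77-fold (136.6 ± 5.2 to 241.9 ± 8.20 CPM, SD, n = 3 each) and WARS, for tryptophan, which interferon also induces, 1.77-fold (82.0 ± 6.84 to 148.3 ± 5.38 CPM, n = 3 each).

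NARS and HARS were the cytosolic genes outside the complex that moved least. NARS, for asparagine, rose 1.23-fold, from 199.2, 180.7 and 198.0 CPM to 242.7, 240.1 and 235.2 CPM, with no overlap (edgeR adjusted p = 1.75e-15). HARS, for histidine, stood at 46.1, 54.0 and 47.7 CPM in shNTC and at 51.2, 49.7 and 53.1 CPM in shNEDD9 and was not called (log2 fold change 0.09, SE 0.07, edgeR adjusted p = 0.223). HARS lies head to head with HARS2 on chromosome 5, and 8.38% of its exon length is covered by exons of genes on the opposite strand. Since the strand setting of the counting is not given, reads of the 2 genes could not be told apart there.

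The promoters of these genes were searched for the C/EBP-ATF composite element, the site through which ATF4 acts on many amino acid response genes. The motif was TGATGNAAN, read on either strand, in windows from 250 bases before to 50 bases after RefSeq start sites (GRCh38.p14). Of 16 cytosolic genes with a window, 7 held a match (43.8%), of 14 mitochondrial genes 1 (7.14%), and 1215 of all 27305 genes with a window (4.45%). Per window the shares were 33.3%, 5.56% and 3.61%. The 8 matches are shown with 10 bases on each side, on the strand of the gene and with the match in capitals, because 5 of the 6 members with the largest log2 fold changes are among them. YARS has no window in the table.
CARS, chr11:3057408-3057436: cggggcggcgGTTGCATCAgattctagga
GARS, chr7:30594834-30594862: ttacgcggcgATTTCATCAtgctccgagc
TARS, chr5:33440956-33440984: gcgcctttcgATTGCATCAgctggtccag
MARS, chr12:57488053-57488081: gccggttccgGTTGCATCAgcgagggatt
AARS, chr16:70289676-70289704: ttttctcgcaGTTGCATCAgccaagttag
NARS, chr18:57621804-57621832: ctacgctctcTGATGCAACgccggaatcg
IARS, chr9:92293693-92293721: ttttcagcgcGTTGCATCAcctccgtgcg
YARS2, chr12:32756076-32756104: tccacactgcTGATGGAAAaattaagttt

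The matches of CARS, TARS, MARS, AARS and IARS differ in their first letter alone, and the match of NARS holds the letters of the CARS match on the other strand. In CARS, TARS, MARS, IARS, GARS and NARS the match lies close to the start site. These matches lie between 34 bases before it (GARS) and 23 bases after it (NARS). In AARS the match begins 188 bases before the start site and in YARS2 197 bases before it. A match did not come with a rise in every gene. IARS held one and was at 149.5, 147.7 and 148.7 CPM in shNTC and 144.2, 150.3 and 142.9 CPM in shNEDD9, with overlapping groups (log2 fold change -0.03, SE 0.04, edgeR adjusted p = 0.527). NARS rose only 1.23-fold, while SARS, with no match in its 2 windows, rose 2.48-fold. FARSB, EPRS, WARS, KARS, FARSA and QARS also had a window without a match and were called higher. HARS and RARS, likewise without a match, were not called. Matches are letters in a window and not measured binding.

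The 8 cytosolic enzymes of the multi-synthetase complex were uneven, with 6 higher, 0 lower and 2 not called and a median log2 fold change of 0.46, against 1.13 for the 12 cytosolic genes outside it. MARS, for methionine (ENSG00000166986, chr12:57475445-57517569, plus strand), rose most, from 171.1, 177.8 and 177.5 CPM to 577.2, 559.8 and 571.5 CPM (3.26-fold, log2 fold change 1.70, SE 0.03, edgeR adjusted p below 1e-300). Exons of ARHGAP9 and DDIT3 on the opposite strand cover parts of MARS, and with MIR6758 on its own strand 13.3% of its exon length. DDIT3 counts rose as well, from 28.5 ± 2.60 to 74.2 ± 3.52 CPM (n = 3 each). Exons of other genes, MARS among them, cover 39.6% of the exon length of DDIT3. The part of overlapping reads in the counts of MARS and of DDIT3 was not tested.

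EPRS, which carries the glutamyl and prolyl enzymes on 1 protein (chr1:219968601-220046658, minus strand), was at 218.8, 215.2 and 231.9 CPM in shNTC and at 441.6, 424.8 and 417.3 CPM in shNEDD9. This is a 1.91-fold increase without overlap (edgeR adjusted p = 1.44e-184). DARS, for aspartate, rose 1.52-fold, KARS 1.42-fold, LARS, for leucine and also a leucine sensor of mTORC1, 1.33-fold, and QARS, for glutamine, 1.14-fold. QARS was the smallest of the 17 increases, from 198.0, 210.5 and 198.9 CPM to 240.0, 228.8 and 222.4 CPM (edgeR adjusted p = 3.43e-07). RARS, for arginine, was at 58.1, 65.0 and 57.3 CPM in shNTC and at 66.8, 61.8 and 57.4 CPM in shNEDD9, and its groups overlapped (log2 fold change 0.05, SE 0.06, edgeR adjusted p = 0.475).

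Of the 3 non-enzyme scaffolds of the complex, 2 were higher. AIMP2 rose 2.36-fold, from 15.4 ± 0.33 to 36.4 ± 2.84 CPM (n = 3 each, edgeR adjusted p = 5.35e-34). EEF1E1 (AIMP3) was at 2.83 ± 1.36 and 4.67 ± 0.29 CPM (edgeR adjusted p = 0.0268). Its call ended in several alternatives, with a range of 0.0211 to 0.166 over all of them. Among these were the fits without shNTC replicate 2 (edgeR adjusted p = 0.166) and without shNEDD9 replicate 3 (0.0827). AIMP1 was at 50.6 ± 2.46 and 46.3 ± 3.17 CPM and was not called (edgeR adjusted p = 0.0919). It was called lower without shNTC replicate 3 (edgeR adjusted p = 0.049) or shNEDD9 replicate 3 (0.0365), with a range of 0.0365 to 0.433 over all alternatives. Exons of other genes cover 28.9% of the exon length of AIMP2 and 11.6% of AIMP1 (opposite strand), and 18.7% of EEF1E1 (same strand). The part of overlapping reads in their counts was not tested.

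Both enzymes shared by cytosol and mitochondria rose. GARS, described above, rose 4.41-fold. KARS (chr16:75627474-75648643, minus strand) was at 108.9, 125.1 and 104.2 CPM in shNTC and at 163.6, 154.1 and 153.4 CPM in shNEDD9. All shNEDD9 values of KARS were above all shNTC values (log2 fold change 0.50, SE 0.04, edgeR adjusted p = 1.89e-28). Without GARS and KARS the cytosolic median was also 0.82, with 15 of 18 genes higher.

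Among the mitochondrial enzymes the 3 largest fold changes were in PARS2, FARS2 and WARS2. PARS2, for proline, was at 7.80, 7.54 and 7.67 CPM in shNTC and at 13.8, 12.2 and 13.8 CPM in shNEDD9 (1.72-fold higher, SE of the log2 fold change 0.15, edgeR adjusted p = 5.31e-07). FARS2, for phenylalanine, was at 3.77, 5.97 and 4.38 CPM in shNTC and at 6.71, 6.23 and 8.07 CPM in shNEDD9 (1.61-fold, SE 0.20, edgeR adjusted p = 0.00131). WARS2, for tryptophan, was at 23.3, 20.7 and 20.8 CPM in shNTC and at 32.4, 36.4 and 34.8 CPM in shNEDD9 (1.59-fold, SE 0.09, edgeR adjusted p = 2.34e-12). The groups did not overlap in these 3 genes, although the margin in FARS2 was small. SARS2, for serine, had only 11 to 38 counts per library and was not called (log2 fold change 0.35, SE 0.27, edgeR adjusted p = 0.243), and 46.2% of its exon length is shared with another gene on the same strand.

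The 9 other mitochondrial increases were under 1.5-fold. VARS2 (1.48-fold, 22% of its exon length shared with GTF2H4 on the same strand), YARS2 (1.48-fold), AARS2 (1.43-fold), NARS2 (1.38-fold) and TARS2 (1.35-fold) led them. AARS2, the alanyl enzyme, was at 77.1, 79.5 and 81.5 CPM in shNTC and at 107.9, 115.6 and 114.4 CPM in shNEDD9, without overlap. CARS2, the mitochondrial gene with the highest CPM, rose 1.22-fold, from 272.2, 286.2 and 277.9 CPM to 343.6, 332.1 and 343.1 CPM (edgeR adjusted p = 2.22e-19). IARS2 rose 1.22-fold as well (157.0 ± 3.85 to 191.3 ± 2.94 CPM, n = 3 each). MARS2 (1.24-fold, edgeR adjusted p = 0.00927) and HARS2 (1.14-fold, 0.0049) lost their calls without shNTC replicate 1 (0.065 and 0.0629).

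The 2 decreases were small. RARS2, for arginine, was at 44.5, 39.0 and 44.1 CPM in shNTC and at 35.4, 37.4 and 37.9 CPM in shNEDD9 (log2 fold change -0.22, SE 0.08, edgeR adjusted p = 0.00611). LARS2, for leucine, was at 98.6, 90.2 and 91.6 CPM in shNTC and at 86.4, 83.9 and 84.0 CPM in shNEDD9 (-0.16, SE 0.05, edgeR adjusted p = 0.00515). Their groups did not overlap, but both calls ended without shNTC replicate 1 (edgeR adjusted p = 0.059 for RARS2 and 0.133 for LARS2), which had the highest value of each gene. EARS2, for glutamate, was at 32.9, 35.5 and 30.0 CPM in shNTC and at 36.3, 33.4 and 28.9 CPM in shNEDD9, with overlapping groups (edgeR adjusted p = 0.991).

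Summed over the members, cytosolic synthetases went from 2460, 2493 and 2487 CPM in the shNTC libraries to 5361, 5227 and 5229 CPM in the shNEDD9 libraries, which is 2.13 times as much. Mitochondrial synthetases went from 952.0, 962.1 and 947.6 CPM to 1161, 1168 and 1171 CPM, which is 1.22 times as much. The cytosolic sum was thus 2.58 to 2.62 times the mitochondrial sum in every shNTC library and 4.47 to 4.62 times in every shNEDD9 library. Divided by exon length, the ratio of sums rose 1.67-fold (2.69 ± 0.03 to 4.47 ± 0.10, n = 3 each).

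The same contrast was made for 17 pairs of a cytosolic and a mitochondrial enzyme for 1 amino acid, as the log2 ratio of their counts per exon base, in which library size cancels. EPRS and FARS2 each enter 2 pairs. The ratio was higher in every shNEDD9 library in 9 pairs, lower in 1 pair and overlapped in 7. CARS over CARS2 changed most, from -2.81, -3.00 and -2.94 in shNTC to -0.98, -0.99 and -1.10 in shNEDD9, a difference of 1.89. The differences were 1.38 for YARS over YARS2, 1.37 for MARS over MARS2, 1.32 for TARS over TARS2, 1.03 for SARS over SARS2, 0.95 for EPRS over EARS2 and 0.90 for AARS over AARS2. LARS over LARS2 and VARS over VARS2 followed at 0.53 and 0.30. Each of these 9 pairs had the smallest p that 3 against 3 libraries allow (two-sided exact permutation p = 0.1, 0.17 after Benjamini-Hochberg adjustment over the 17 pairs), so no pair could pass the threshold by this test.

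**Figure D3:**
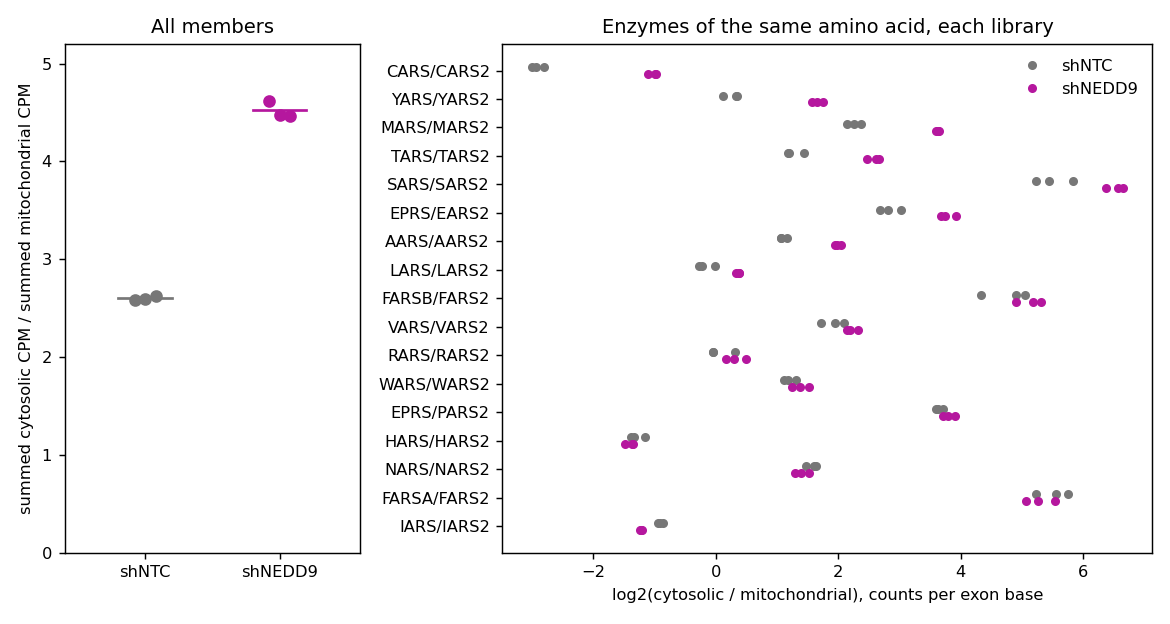
Left, the summed CPM of the 20 cytosolic genes over that of the 16 mitochondrial genes in each library, with group means as bars. Right, the log2 ratio of cytosolic to mitochondrial counts per exon base for each of 17 pairs in each library. The shNEDD9 libraries lie to the right of all shNTC libraries in 9 pairs and to the left in IARS/IARS2.

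Isoleucine was the exception. IARS over IARS2 was lower in every shNEDD9 library (-0.91 ± 0.04 to -1.22 ± 0.02, n = 3 each, two-sided exact permutation p = 0.1). In the fit over all genes IARS2 rose and IARS was not called. The ratios for histidine, asparagine and the FARSA subunit also had negative differences (-0.12, -0.17 and -0.23), and their groups overlapped (exact permutation p = 0.3, 0.2 and 0.4).

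Levels of different genes were set side by side per exon length, which is only approximate here: the length is that of all annotated transcripts together, so genes with many annotated isoforms, such as CARS, come out low and the order depends on it. In shNTC the highest levels were those of NARS (47.1 ± 2.53 CPM per kb, n = 3), FARSA (43.6 ± 2.28), QARS (43.0 ± 1.48) and EPRS (40.7 ± 1.62), of which FARSA and QARS lay within 1 SD of each other. In shNEDD9 the order was led by GARS (157.2 ± 3.18 CPM per kb), AARS (104.1 ± 1.19) and SARS (96.98 ± 2.03), which lay apart by more than their spread. GARS had been number 7 of 20 in shNTC. On this scale CARS was at 3.52 ± 0.15 CPM per kb in shNTC and 16.0 ± 0.68 in shNEDD9. Mitochondrial genes had a median of 9.60 CPM per kb in shNTC and 12.5 in shNEDD9, and IARS2 was the highest of them in both groups (37.7 ± 0.92 and 45.9 ± 0.71).

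Genes that lie around each member on its chromosome were set beside it. The 20 nearest other tested genes (10 on each side) had a median log2 fold change within 0.4 of 0 for 34 of the 36 members. Beside CARS it was 0.11, beside GARS 0.27, beside YARS -0.19, beside TARS 0.31, beside MARS -0.15 and beside AARS -0.11, while these members were at 1.40 to 2.16. The members with the lowest neighbours were NARS and IARS, both of which hold the promoter match shown above. Around NARS on chromosome 18 the median was -0.89, with 16 of 20 neighbours lower and 2 higher, and around IARS on chromosome 9 it was -0.60, with 16 lower and 2 higher. Whether the neighbours' decrease bears on NARS and IARS was not tested. Beside LARS2, which fell by 0.16, the median was -0.37 with 15 of 20 lower, and beside RARS2, which fell by 0.22, it was 0.08. 34 members were above the median of their neighbours, and RARS and RARS2 were below it.

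**Figure D4:**
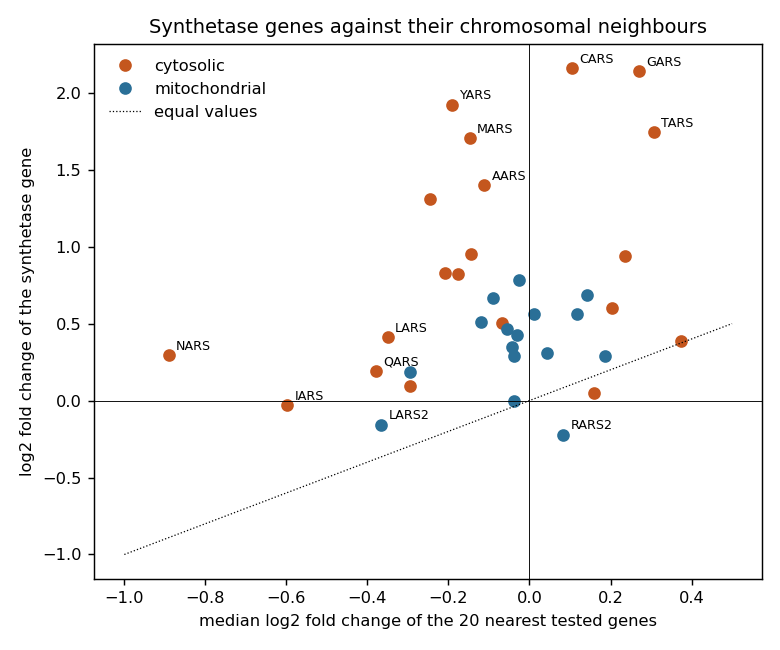
Log2 fold change of each synthetase gene against the median log2 fold change of its 20 nearest other tested genes, with a dotted line of equal values. CARS, GARS, YARS, TARS, MARS and AARS lie well above neighbours near 0, and NARS and IARS lie at the left with neighbours at -0.89 and -0.60.

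Other genes that make, mature and use tRNA were read from lists, each to be set against the 71.4% of all tested genes called and the 35.5% called higher. Of 21 genes of tRNA transcription by RNA polymerase III, 13 rose and 3 fell, and their median log2 fold change was 0.29. This list had 76.2% of its genes called, a share near that of all genes, and 61.9% called higher. The largest changes were in the polymerase subunits POLR3F (1.002) and POLR3C (0.85) and in GTF3C6 (0.98), a subunit of the promoter-binding factor TFIIIC. Of 22 tested genes of tRNA end processing, CCA addition and export, 12 rose and 1 fell (2 without shNTC replicate 1), with a median of 0.24. The share called, 59.1%, was below that of all genes, and 54.5% were called higher. XPOT, which carries mature tRNA out of the nucleus, had a 3.23-fold rise, from 125.2 ± 5.72 to 405.9 ± 3.74 CPM (n = 3 each, edgeR adjusted p below 1e-300). TSEN15 of the tRNA splicing endonuclease rose by 1.06 and RPP38 of RNase P by 0.78 on the log2 scale.

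Of 13 genes that process or help charge mitochondrial tRNA, 10 rose (76.9%) and 0 fell, and the list's median was 0.66 on the log2 scale. MTO1 (1.04) and TRIT1 (0.86), which modify tRNA, and QRSL1 (1.003), a subunit of the amidotransferase that makes mitochondrial glutaminyl-tRNA, changed most. Of 9 mitochondrial translation factors, 5 rose (55.6%, with fewer called than among all genes) and 0 fell (median 0.39), led by MRRF (1.04), TSFM (1.02) and MTIF2 (0.99).

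All 5 tested cytosolic elongation factor genes rose (median 0.68), with EEF1B2 at 1.26, EEF1D at 0.75 and EIF5A at 0.68. EEF1G is listed at 0 in all libraries, and 99.9% of its exon length is shared with another annotated gene on the same strand. Of 7 other genes of tRNA charging, proofreading and selenocysteine use, 3 rose (42.9%) and 1 fell (median -0.11), so that 57.1% were called, below the share of all genes. SECISBP2, which binds the selenocysteine element of messenger RNAs, fell by 0.74, the proofreading enzyme gene DTD1 rose by 0.66 and EEFSEC, the selenocysteine elongation factor gene, by 0.66.

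Of 15 genes of the amino acid response, 10 rose and 3 fell, and the middle gene of the list had a log2 fold change of 1.2. ATF4 mRNA itself, named outside the rule, rose 2.55-fold (193 ± 8.38 to 496.6 ± 6.12 CPM, n = 3 each). ATF3, a transcription factor gene induced by ATF4, rose by 3.22 and CEBPB, which encodes a partner of ATF4, by 1.99. ASNS, which encodes the enzyme that makes asparagine, had 2, 0 and 3 counts in shNTC and 25, 35 and 60 counts in shNEDD9, and rose by 4.02 on the log2 scale (SE 0.43), a size that depends on the prior count of the fit. Without shNTC replicate 3 it was 4.61 and without shNTC replicate 2 3.74, and ASNS passed the count filter only through shNEDD9. Of its exon length, 44.6% is shared with another gene on the same strand. EIF2AK4, which encodes GCN2, was at 91.5 ± 1.75 and 92.9 ± 3.35 CPM and was not called (edgeR adjusted p = 0.737). The 3 genes that fell were EIF2AK3, which encodes the kinase PERK (-0.58), PPP1R15A, which encodes GADD34, a phosphatase subunit that reverses the response (-0.54), and EIF2AK2, which encodes the kinase PKR (-0.26).

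**Figure D5:**
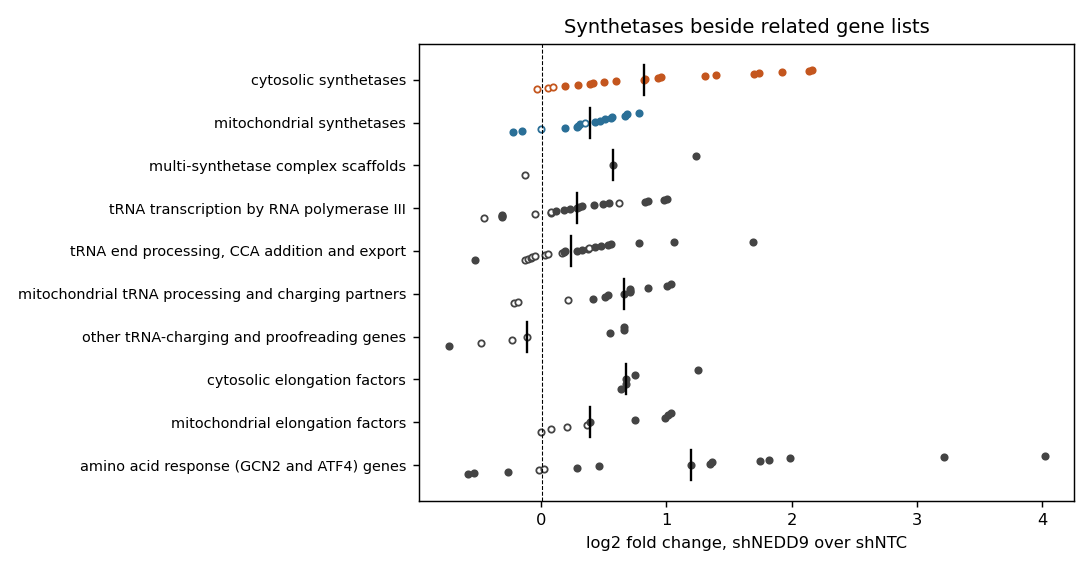
Log2 fold change, shNEDD9 over shNTC, of the tested genes of each list, with the list's median as a bar, open circles for genes not called and a dashed line at the median of all tested genes. The cytosolic synthetases, with a median of 0.82, lie above the mitochondrial synthetases at 0.39, and the amino acid response genes spread from -0.58 to 4.02.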

How the data were processed

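RNA from 3 shNTC and 3 shNEDD9 libraries was analysed. The authors deposited raw counts, 1 whole number for each gene and library. Tools listed in the submitters' processing notes are STAR 2.5.3a, Subread 1.6.2 with featureCounts, cutadapt 1.9 and FastQC 0.11.5. The same notes list the builds hg19 and GRCh38 with no role. The strand setting is not given in the sources used here, so reads of overlapping genes may have been mixed or dropped. 1 row without an identifier was left out. All 58735 identifiers matched GENCODE release 29 (GRCh38), which gave positions and exon lengths, and 30 members matched the RefSeq promoter table.

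edgeR 4.0.16 (TMM factors, filterByExpr with a minimum count of 10, glmQLFit with robust estimation, glmQLFTest, R 4.3.3) was fitted over all 13958 genes kept, with Benjamini-Hochberg adjustment over them and 0.05 as threshold. Standard errors (SE) are the unshrunken log2 fold change divided by the square root of F. CPM uses the counts of kept genes as library size. A count of 3 equals 0.303 to 0.943 CPM. Pair ratios used exact permutation tests (scipy 1.17.1). The procedure was tested on simulated data. Libraries of a group differed by little more than sampling noise (chi-square per degree of freedom 1.14 to 1.205). Each was counted as 1 replicate because the labels call them biological triplicates, and the values do not show that they came from separate cultures.

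The members and lists were chosen with earlier results of these data known. Every member is described. From each list up to 3 called genes with the largest log2 fold change either way and a mean of at least 1 CPM were named; ATF4, DDIT3, AIMP1, EEF1G, EIF2AK2, EIF2AK3, EIF2AK4 and PPP1R15A were named beyond that rule after their values were seen. Alternatives were other scaling (RLE, upper quartile, library totals), other filters, DESeq2 1.42.0, limma-voom (limma 3.58.1), a replicate block, thinning and each library left out.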

Additional observations from a re-analysis of the deposited data

How the results depend on the processing

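Of the 36 members, 30 kept their direction and call under all 15 alternatives that could be computed for them (SARS2 could not be tested after thinning). The cytosolic increases numbered 17 in each fit that left out a library. The 2 mitochondrial decreases numbered 0 with DESeq2, 1 after thinning all libraries to the smallest total and 0 to 2 over the fits that left out a library. The median log2 fold change of the mitochondrial members was 0.469 after thinning. The change in the ratio of cytosolic to mitochondrial sums was 1.74-fold on CPM and 1.67-fold (1.665) on counts per exon base, and 1.72 to 1.75 over the values without a library. For pairs that second scale was already the one reported. The log2 fold change of RARS, not called in any fit, was -0.045 after thinning. The log2 fold change of EARS2, not called in any fit, was positive at 0.00363 with upper quartile factors, 0.016 with library totals, 0.0213 without a filter, 9.55e-06 with a minimum mean of 1 CPM, 0.00485 with DESeq2, 0.00813 with the replicate block, and between -0.0641 and 0.105 over all alternatives. The replicate block changed no call of a member and left 9834 of 13958 genes called, against 9964. Deviations of same-numbered libraries from their group means correlated by 0.00338 to 0.00645, and those of differently numbered libraries by -0.0055 to 0.000486. Since these deviations are mostly sampling noise, the correlations cannot show whether same-numbered libraries shared a batch. With DESeq2, LARS2, MARS2 and RARS2 lost their calls (adjusted p = 0.0583, 0.0673 and 0.0618), as did HARS2 and LARS2 after thinning (0.537 and 0.0576, the latter for the log2 fold change of LARS2). For list genes, alternatives were added after seeing the data. They ended the call of EEF1E1 in 3 settings and called AIMP1 lower in 2. Over the fits without a library, counts ranged for tRNA end processing from 10 to 13 higher and 1 to 2 lower, for RNA polymerase III from 11 to 13 and 3 to 4, and for mitochondrial translation factors from 5 to 6 higher. Depth limits FARS2, SARS2 and PARS2 most.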
